A study of Homo sapiens with 12 samples.

Results

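Lysosomes are acidic organelles in which soluble hydrolases break down proteins, lipids and sugars delivered by endocytosis and by autophagy, the process that wraps cytoplasm in a double membrane and fuses it with the lysosome. Here 43 genes of this system, taken by name from a table of 63241 genes, were followed in T98G and U251 cells, both established human glioblastoma cell lines. They comprise lysosomal hydrolases and their activators, lysosomal membrane proteins, subunits of the proton pump, the TFE transcription factors, autophagy factors and trafficking proteins. The members were matched by gene name from a list drawn up with earlier results of these data known. In each line, cells labelled PEPD-OE, in which PEPD was over-expressed, were compared with cells labelled NC, a label that is not expanded. PEPD encodes peptidase D (prolidase), an enzyme that splits dipeptides ending in proline. Each of the 4 groups, T98G PEPD-OE, T98G NC, U251 PEPD-OE and U251 NC, held 3 replicates, 12 libraries in all. How PEPD was over-expressed, and whether the cells were clones or pools, is not given in the labels. Nor do they say whether replicates were separate cultures, so p-values may reflect technical spread alone.

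The hydrolases reach the lysosome as precursors carrying mannose 6-phosphate and are activated at low pH, which the V-ATPase proton pump maintains. LAMP1 and LAMP2 form much of the protein coat on the inner face of the lysosomal membrane. In autophagy, the ULK1 complex, which includes ATG13, and the BECN1 lipid kinase complex start the membrane, WIPI proteins bind its lipids, and ATG7 and the ATG5-ATG12 conjugate attach LC3 and GABARAP proteins to it, where cargo receptors such as TAX1BP1 and OPTN dock. TFEB, TFE3 and MITF switch many of these genes on together by binding a short element with the core TCACGTG. Cathepsin B and cathepsin L are well known in glioblastoma for their part in matrix breakdown and invasion.

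That core was searched for on both strands of the promoter windows, from 250 bases before to 50 bases after the start of the gene, in RefSeq annotation of GRCh38.p14. Of the 43 members, 34 matched a window, and 6 of these (17.6%) held TCACGTG: ATP6V0D1, CTSA, CTSD, GAA, LAMP1 and MCOLN1. No window was matched for CTSB, PSAP, LAMP2, HEXA, MANBA, ATP6V0E1, ATP6V1A, ATP6V1B2 and ATP6V1H, so their promoters were not searched. The motif was present for 4.49% of all 27305 genes in the promoter table and for 7.49% of the 6501 genes with a window that were also tested for expression. All 6 members kept a match when only the bases before the start were searched. The shorter CACGTG, which TCACGTG contains, was present for 7 members (20.6%), 8.77% of all genes and 13.2% of tested genes. The longer palindrome, TCACGTG with G before it and AC after it, was present for GAA and MCOLN1, 5.88% of the matched members, against 0.421% of all genes and 1.0% of tested genes. A match is a run of letters and no proof of binding. Promoters of 4 members are shown because they differ in how often they hold the core: CTSD (chr11:1763878-1764177, minus strand) once, GAA (chr17:80101331-80101630, plus strand) and MCOLN1 (chr19:7522374-7522673, plus strand) at 2 separate places each, and LAMP1 (chr13:113296989-113297288, plus strand) at 6. Among the 34 matched members, CTSD is the motif-bearing member called in a PEPD comparison. The other 3 were chosen after their matches were seen. Sequences run 5' to 3' on the strand of the gene, and capitals mark TCACGTG on either strand.
CTSD promoter: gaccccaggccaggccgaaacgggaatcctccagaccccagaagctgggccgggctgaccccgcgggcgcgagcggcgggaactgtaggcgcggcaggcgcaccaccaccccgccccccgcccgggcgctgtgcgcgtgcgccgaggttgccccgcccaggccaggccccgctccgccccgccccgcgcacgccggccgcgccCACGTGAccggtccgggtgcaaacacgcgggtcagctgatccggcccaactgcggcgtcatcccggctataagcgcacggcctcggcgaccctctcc
GAA promoter: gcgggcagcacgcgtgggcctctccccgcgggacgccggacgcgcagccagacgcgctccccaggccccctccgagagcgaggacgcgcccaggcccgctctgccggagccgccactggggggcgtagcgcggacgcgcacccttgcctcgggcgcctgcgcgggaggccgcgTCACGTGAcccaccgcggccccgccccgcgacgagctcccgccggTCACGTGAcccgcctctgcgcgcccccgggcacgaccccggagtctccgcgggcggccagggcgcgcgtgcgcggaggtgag
LAMP1 promoter: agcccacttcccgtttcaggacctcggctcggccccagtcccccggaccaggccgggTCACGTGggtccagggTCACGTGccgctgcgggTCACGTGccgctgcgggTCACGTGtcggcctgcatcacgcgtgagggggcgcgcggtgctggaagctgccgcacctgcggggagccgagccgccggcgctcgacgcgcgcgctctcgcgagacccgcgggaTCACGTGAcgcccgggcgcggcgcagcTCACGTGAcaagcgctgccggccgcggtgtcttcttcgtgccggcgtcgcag
MCOLN1 promoter: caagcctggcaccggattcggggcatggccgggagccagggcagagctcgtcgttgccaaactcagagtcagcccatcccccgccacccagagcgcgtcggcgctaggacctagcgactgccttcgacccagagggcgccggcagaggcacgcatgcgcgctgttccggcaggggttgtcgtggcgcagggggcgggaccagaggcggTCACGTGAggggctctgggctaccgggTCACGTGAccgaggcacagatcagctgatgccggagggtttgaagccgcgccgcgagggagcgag

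PEPD itself followed the labels. It averaged 164 ± 9.5 CPM (counts scaled to a TMM-adjusted library of 1000000) in T98G PEPD-OE and 11.0 ± 8.2 CPM in T98G NC, and 175 ± 10.6 CPM in U251 PEPD-OE and 9.55 ± 3.44 CPM in U251 NC (SD, n = 3 each). Libraries were shallow, at 464056 to 924204 counts, so that 3 counts in a library equalled 3.25 to 6.46 CPM. Glioblastoma and astroglial markers, 7 of 8 of them tested, summed to 1240 to 1413 CPM in T98G PEPD-OE, 1718 to 1800 in T98G NC, 3319 to 3875 in U251 PEPD-OE and 4737 to 4829 in U251 NC. None of 7 macrophage and microglia markers and none of 4 endothelial markers had enough counts to be tested, VWF and the epithelial marker EPCAM were at 0 in every library, and the macrophage and microglia sum ranged from 5.7 to 63.9 CPM in T98G PEPD-OE and from 0 to 65 CPM in T98G NC, and reached 7.53 CPM in U251 PEPD-OE and 10.3 CPM in U251 NC. Fibroblast markers, 2 of 5 of them tested, summed to 541 to 667 CPM in T98G PEPD-OE and 243 to 309 CPM in T98G NC, and to 309 to 399 CPM in U251 PEPD-OE and 506 to 541 CPM in U251 NC. Epithelial markers, 3 of 5 of them tested, summed to 148 to 222 CPM in T98G PEPD-OE and 146 to 188 CPM in T98G NC, and to 87.1 to 184 CPM in U251 PEPD-OE and 129 to 182 CPM in U251 NC.

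The 43 members held 55978 counts over the 12 libraries, of which CTSZ and ATG7 alone took 72.0%. Without that pair, the members made up 0.14% to 0.192% of a library. Counts sufficed to test 35 members. MANBA, MCOLN1, ATP6V1H, TFEB, TFE3, MITF, GABARAPL2 and ATG5 were too low. For 19 members, exon bases are shared with a gene annotated on the other strand. The libraries kept the strand of the RNA, but the strand setting used in counting is not given in the sources used here, so for these 19 it cannot be told from the table which of the overlapping genes the reads came from. Across the table, noncoding genes lying at least 95% inside exons of a coding gene on the other strand had more counts per kb of exon than that coding gene in 255 of 358 pairs (71.2%). The table may therefore hold reads counted on the strand opposite to their transcript, which was not tested. That doubt bears on every member, also on those with no annotated overlap, such as CTSB, PSAP, CTSL, GLA and CTSZ, whose counts need not be of their own transcripts. Each called member is given with its overlap, and all levels and changes below are those of the counts listed under the gene's name.

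Of the 35 tested members, 5 rose in T98G PEPD-OE (CTSB, PSAP, GABARAPL1, WIPI1 and ATG7) and 1 fell (CTSL) by the edgeR quasi-likelihood test at an adjusted p under 0.05. Over all 8773 genes tested, 17.7% were higher and 14.7% lower in T98G PEPD-OE. In U251, GLA was higher and CTSD and ATG7 were lower, where 4.13% of all tested genes were higher and 4.42% lower. Called members thus made up 6 of 35 in T98G, beside 32.3% of all tested genes, and 3 of 35 in U251, beside 8.55%. Median log2 fold changes of the members were 0.13 in T98G and -0.11 in U251, beside 0.0 over all tested genes in both lines. ATG7 was the single member called in both lines, and it went in opposite directions. The standard error (SE) of a member's log2 fold change had a median of 0.275 in T98G and 0.256 in U251, which limits what could be called. A smaller share of cells with a transcript and less of it per cell cannot be told apart in these bulk libraries.

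**Figure D1:**
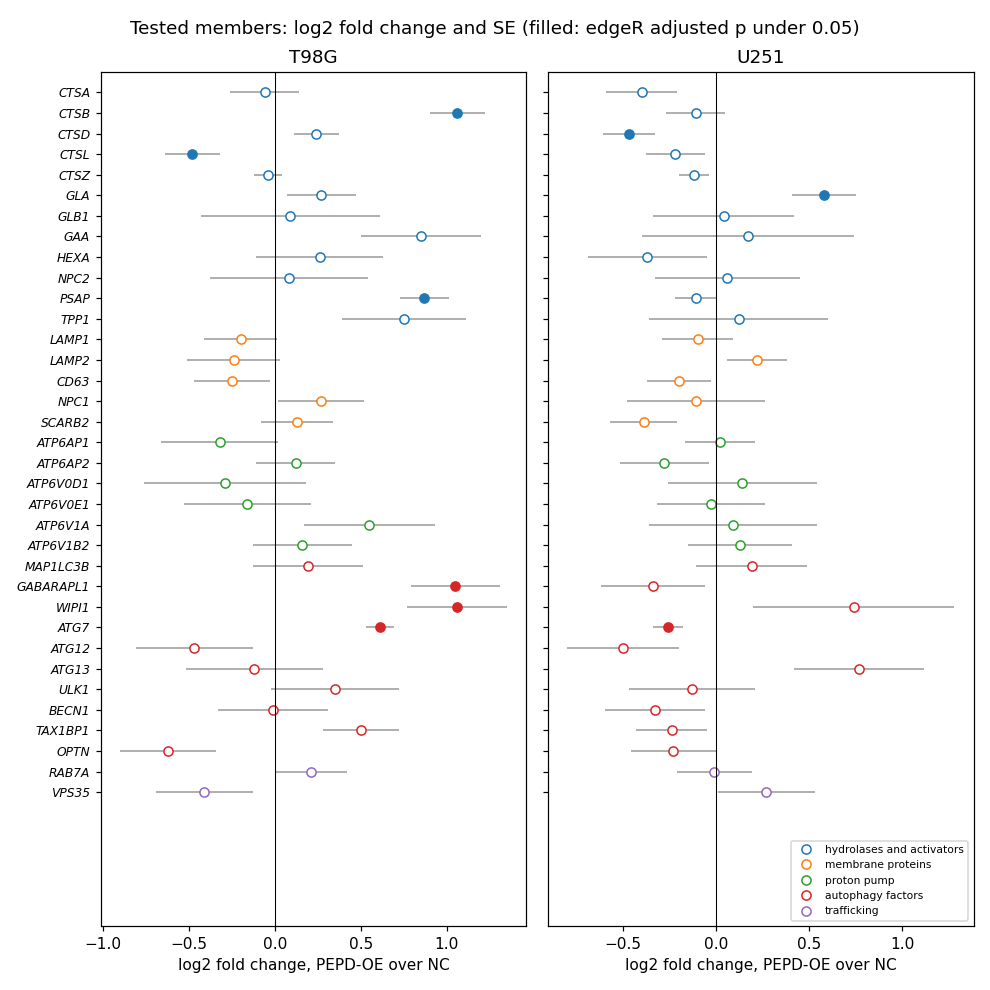
Log2 fold change of PEPD-OE over NC (x axis) for the 35 tested members (rows) in T98G (left) and U251 (right), with lines for 1 SE and filled points for an edgeR adjusted p under 0.05. In T98G the filled points are CTSB, CTSL, PSAP, GABARAPL1, WIPI1 and ATG7, in U251 they are CTSD, GLA and ATG7, and no membrane protein, pump subunit or trafficking gene is filled in either line.

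Of the 12 tested hydrolases and activators, 2 rose and 1 fell in T98G PEPD-OE, with a median log2 fold change of 0.25, and 1 rose and 1 fell in U251 PEPD-OE, with a median of -0.11. Called in either direction were thus 3 of 12 in T98G, beside 32.3% of all tested genes, and 2 of 12 in U251, beside 8.55%. CTSB encodes cathepsin B, a cysteine protease (GRCh38 chromosome 8, 11842524 to 11869448, minus strand, free of overlapping exons on the other strand). It had 167, 171 and 201 CPM in T98G PEPD-OE libraries, against 80.2, 76.7 and 99.1 CPM in T98G NC libraries. Every PEPD-OE library lay above every NC library. The log2 fold change was 1.06 (SE 0.16, edgeR adjusted p = 4.46e-09). In U251, CTSB had 85.9, 84.8 and 104 CPM in PEPD-OE libraries and 93.9, 113 and 90.9 CPM in NC libraries, and the groups overlapped (log2 fold change -0.11, SE 0.16, edgeR adjusted p = 0.776).

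PSAP encodes prosaposin, the precursor cut into saposins, small proteins that present sphingolipids to their hydrolases (chromosome 10, 71816298 to 71851375, minus strand, no overlap with the other strand). It stood at 198, 224 and 236 CPM in T98G PEPD-OE libraries, against 95, 133 and 127 CPM in T98G NC libraries. The T98G groups were fully apart, and PSAP rose by 0.87 on the log2 scale (SE 0.14, edgeR adjusted p = 8.07e-08). U251 libraries held more PSAP than either T98G group: 298, 406 and 404 CPM in U251 PEPD-OE and 386, 429 and 391 CPM in U251 NC. These overlapped, at -0.11 on the log2 scale (SE 0.11, edgeR adjusted p = 0.642).

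CTSL, the cysteine protease cathepsin L (chromosome 9, 87725519 to 87731393, plus strand, no overlap with the other strand), went the other way from CTSB in T98G. Its libraries had 97.6, 87.3 and 101 CPM in T98G PEPD-OE and 129, 143 and 127 CPM in T98G NC. The groups did not overlap, and the log2 fold change was -0.48 (SE 0.16, edgeR adjusted p = 0.0131). The call was lost without T98G PEPD-OE replicate 2 (log2 fold change -0.42, adjusted p = 0.0746), on leaving out T98G NC replicate 2 (-0.43, adjusted p = 0.0776) and with DESeq2 (-0.47, adjusted p = 0.052), and adjusted p over all 22 alternatives ran from 0.00373 to 0.0776. CTSL levels in U251 were 81.4, 97.9 and 99.3 CPM in PEPD-OE libraries and 114, 100 and 113 CPM in NC libraries, apart but not called (log2 fold change -0.22, edgeR adjusted p = 0.449).

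CTSD encodes cathepsin D, the main aspartic protease of the lysosome (chromosome 11, 1752752 to 1764573, minus strand), whose promoter holds the core once. Its U251 libraries had 121, 127 and 154 CPM in PEPD-OE, against 193, 176 and 191 CPM in NC. All PEPD-OE values were below all NC values, and CTSD fell by 0.47 on the log2 scale (SE 0.14, edgeR adjusted p = 0.0138). Adjusted p was 0.074 without U251 PEPD-OE replicate 2, 0.0553 without U251 NC replicate 1 and 0.0508 without U251 NC replicate 3, within a range of 0.00271 to 0.074 over 21 alternatives. In T98G the values were 231, 217 and 198 CPM in PEPD-OE libraries and 177, 175 and 191 CPM in NC libraries, apart but not called (log2 fold change 0.24, SE 0.13, edgeR adjusted p = 0.161). CTSD shares 493 exon bases with the antisense gene AC068580.3 and also overlaps AC068580.4 on its own strand. AC068580.3 was itself lower in U251, at 26.6 ± 5.07 CPM in PEPD-OE and 47.6 ± 17 CPM in NC (SD, n = 3 each, edgeR adjusted p = 0.0199), and whose reads these are was not tested.

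GLA encodes alpha-galactosidase A, which removes terminal galactose from glycolipids (chromosome X, 101397803 to 101408012, minus strand, no overlap with the other strand). In U251 it had 125, 83.6 and 106 CPM in PEPD-OE libraries and 81.9, 64.4 and 61.5 CPM in NC libraries. The lowest PEPD-OE library stood just above the highest NC library. GLA rose by 0.58 on the log2 scale (SE 0.17, edgeR adjusted p = 0.0168), but adjusted p was 0.137 without U251 PEPD-OE replicate 1, 0.0525 without U251 PEPD-OE replicate 3, 0.0917 without U251 NC replicate 2, 0.123 without U251 NC replicate 3 and 0.0665 with DESeq2, in a range of 0.00841 to 0.137. T98G levels of GLA were 81.4, 71.7 and 69.8 CPM in PEPD-OE libraries and 67.5, 53.3 and 65.2 CPM in NC libraries, also apart but not called (log2 fold change 0.27, edgeR adjusted p = 0.304).

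The other hydrolases were not called in either PEPD comparison. GAA, the acid alpha-glucosidase that degrades glycogen, came closest in T98G, with 23.7, 34.3 and 29.9 CPM in PEPD-OE libraries and 12.7, 16.9 and 17.6 CPM in NC libraries. Its groups did not overlap (log2 fold change 0.85, SE 0.35, edgeR adjusted p = 0.0504), and GAA was called with RLE scaling, with T98G fitted alone, with genes overlapping the other strand left out, and in 6 of the 12 fits with a library left out. TPP1, a tripeptidyl peptidase, averaged 25.7 ± 2.02 CPM in T98G PEPD-OE and 15.4 ± 2.1 CPM in T98G NC (SD, n = 3 each, log2 fold change 0.75, edgeR adjusted p = 0.0967). CTSA, CTSZ, GLB1, HEXA and NPC2 had T98G log2 fold changes of -0.06 to 0.26 and U251 log2 fold changes of -0.4 to 0.06. CTSZ, a carboxypeptidase of the cathepsin family, was the most abundant member per length, at 12016 counts per kb of exon over the 12 libraries, against 793 for PSAP, 506 for CTSD and 404 for CTSL. It had 2220, 2283 and 2104 CPM in T98G PEPD-OE and 2201, 2262 and 2306 CPM in T98G NC, with overlapping values. The 3' end of CTSZ lies 52 bases from that of NELFCD on the other strand. MANBA, a beta-mannosidase, had too few counts for a test, at 13, 10, 8 and 18 counts summed over T98G PEPD-OE, T98G NC, U251 PEPD-OE and U251 NC.

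**Figure D2:**
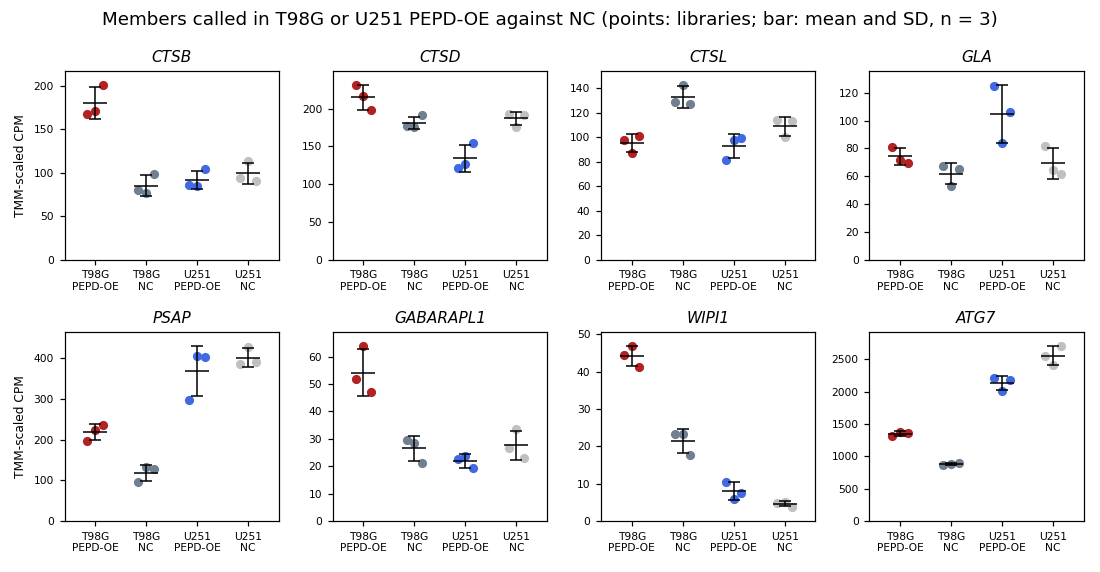
TMM-scaled CPM (y axis, from 0) of the 8 members called in a PEPD-OE comparison, by group (x axis), with a point per library and bars for mean and SD (n = 3). PEPD-OE points lie above NC points in T98G for CTSB, PSAP, GABARAPL1, WIPI1 and ATG7, and below them for CTSL. In U251 they lie above for GLA and below for CTSD and ATG7.

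None of the 5 tested membrane proteins and none of the 6 tested pump subunits was called in T98G or U251 PEPD-OE by edgeR, nor by DESeq2. At an unadjusted edgeR p under 0.05 there was 1, SCARB2, a scavenger receptor family protein of the lysosomal membrane, at 67.3 ± 16.2 CPM in U251 PEPD-OE and 86.4 ± 17.3 CPM in U251 NC (SD, n = 3 each, edgeR adjusted p = 0.196). LAMP1, whose promoter holds the core at 6 places, had 56.2, 54.5 and 58.4 CPM in T98G PEPD-OE libraries and 57, 74.1 and 61.5 CPM in T98G NC libraries. Its values overlapped in U251 as well, with 55.7, 74 and 61.9 CPM in PEPD-OE and 63.8, 78.6 and 64 CPM in NC. T98G log2 fold changes of the membrane group, LAMP1, LAMP2, the tetraspanin CD63, the cholesterol exporter NPC1 and SCARB2, ran from -0.25 to 0.27, with a median of -0.2, and in U251 from -0.39 to 0.22, with a median of -0.11. MCOLN1, a calcium channel of the lysosomal membrane with the palindrome in its promoter, had 15 counts in T98G PEPD-OE, 4 in T98G NC, 17 in U251 PEPD-OE and 20 in U251 NC, too few for a test.

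Pump subunits of both sectors were covered: ATP6V1A and ATP6V1B2 of the sector that splits ATP, ATP6V0D1 and ATP6V0E1 of the membrane sector, and the accessory proteins ATP6AP1 and ATP6AP2. ATP6V1A, the catalytic subunit, had the widest change, with 20.8 ± 3.94 CPM in T98G PEPD-OE and 13.7 ± 3.17 CPM in T98G NC (SD, n = 3 each, log2 fold change 0.55, SE 0.38, edgeR adjusted p = 0.28). The other 5 had log2 fold changes of -0.32 to 0.16 in T98G, and all 6 of -0.28 to 0.14 in U251. Group medians were -0.02 in T98G and 0.06 in U251. ATP6V1H, a regulatory subunit, fell below the count filter. It had 7.4, 6.23 and 7.12 CPM in T98G PEPD-OE libraries and 12.7, 23.4 and 12.5 CPM in T98G NC libraries, 14 counts in all against 34. The groups were apart, and ATP6V1H was called lower in T98G in 8 of the 12 fits with a library left out, where the filter kept it, but in neither fit with a looser filter. Its U251 sums were 20 counts in PEPD-OE and 17 in NC.

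The TFE transcription factors were at the edge of detection. TFEB had 2.96, 6.23 and 8.55 CPM in T98G PEPD-OE libraries and 2.11, 1.3 and 2.51 CPM in T98G NC libraries, which is 12 counts in all against 4. The U251 values of TFEB were 4.52, 3.58 and 3.2 CPM in PEPD-OE libraries and 1.2, 5.15 and 3.84 CPM in NC libraries. Most of these lie near or below the level of 3 counts, so no direction is read from them. TFE3 had 10.4, 9.35 and 11.4 CPM in T98G PEPD-OE and 4.22, 13 and 3.76 CPM in T98G NC, and 7.53, 7.16 and 0 CPM in U251 PEPD-OE and 9.63, 5.15 and 1.28 CPM in U251 NC. MITF had 5.92, 4.67 and 1.42 CPM in T98G PEPD-OE and 6.33, 13 and 3.76 CPM in T98G NC, and 0, 3.58 and 3.2 CPM in U251 PEPD-OE and 1.2, 2.58 and 0 CPM in U251 NC. The groups of both genes overlapped in both lines. None of the TFE factors had enough counts to be tested. Of the 6 members with TCACGTG in the promoter, MCOLN1 was not tested and the other 5 were not called in T98G, where 32.3% of all tested genes were. CTSB and PSAP, both higher in T98G PEPD-OE, matched no promoter window, so whether they hold the motif is not known here. GAA, at an adjusted p of 0.0504 by edgeR, was called in some of the alternatives given above.

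Of 10 tested autophagy factors, 3 rose and none fell in T98G PEPD-OE, with a median log2 fold change of 0.27, and none rose and 1 fell in U251 PEPD-OE, with a median of -0.24. Called genes made up 32.3% of all tested genes in T98G and 8.55% in U251, so the share called among these factors is near the background in both lines. At an unadjusted edgeR p under 0.05 there was 1 lower in T98G, OPTN, and 1 higher in U251, ATG13, and DESeq2 called neither. GABARAPL1 encodes a GABARAP protein of the ATG8 family, which is attached to the autophagosome membrane (chromosome 12, 10212458 to 10223130, plus strand). It had 51.8, 63.9 and 47 CPM in T98G PEPD-OE libraries, against 29.5, 28.6 and 21.3 CPM in T98G NC libraries. All PEPD-OE libraries were above all NC libraries (log2 fold change 1.05, SE 0.26, edgeR adjusted p = 0.000495). U251 libraries of GABARAPL1 held 22.6, 23.9 and 19.2 CPM in PEPD-OE and 26.5, 33.5 and 23.1 CPM in NC, and these overlapped (log2 fold change -0.34, edgeR adjusted p = 0.546). Its partner on the other strand, AC115676.1, shares 329 exon bases with it and had 9 counts in all.

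WIPI1 encodes a protein that binds phosphatidylinositol 3-phosphate on the forming autophagosome (chromosome 17, 68420948 to 68457513, minus strand). Its level was 44.4, 46.7 and 41.3 CPM in T98G PEPD-OE libraries, against 23.2, 23.4 and 17.6 CPM in T98G NC libraries. The groups were fully apart, and WIPI1 rose by 1.06 on the log2 scale (SE 0.29, edgeR adjusted p = 0.00231). In U251, WIPI1 was low, at 10.5, 5.97 and 7.47 CPM in PEPD-OE libraries and 4.82, 5.15 and 3.84 CPM in NC libraries, apart but not called (log2 fold change 0.74, SE 0.54, edgeR adjusted p = 0.471). WIPI1 shares 828 exon bases with ARSG, a sulfatase gene on the other strand that held 452 counts per kb of exon, against 47.6 for WIPI1. ARSG also rose in T98G, at 580, 654 and 614 CPM in PEPD-OE libraries and 319, 285 and 324 CPM in NC libraries (log2 fold change 1.0, SE 0.11, edgeR adjusted p = 3.31e-14). Which of these genes the reads under ARSG came from was not tested.

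ATG7 encodes the E1-like enzyme that activates ATG12 and the ATG8 proteins (chromosome 3, 11272309 to 11557665, plus strand). It had 1309, 1381 and 1356 CPM in T98G PEPD-OE libraries, against 869, 885 and 898 CPM in T98G NC libraries. The spread within each group was small beside the gap, and the log2 fold change was 0.61 (SE 0.08, edgeR adjusted p = 2.97e-10). U251 libraries of ATG7 held more, with 2213, 2015 and 2185 CPM in PEPD-OE and 2552, 2415 and 2705 CPM in NC. There ATG7 fell by 0.26 on the log2 scale (SE 0.08, edgeR adjusted p = 0.0233), with no overlap of the groups. This smaller change lost its call without U251 PEPD-OE replicate 2 (adjusted p = 0.154), without U251 NC replicate 1 (0.0768), without U251 NC replicate 3 (0.175), with no filter on low counts (0.142), with a filter of at least 1 CPM in 3 libraries (0.0812) and with U251 fitted alone (0.0733), and adjusted p ranged from 0.00488 to 0.175 over 21 alternatives. ATG7 shares 1596 exon bases with VGLL4, a transcription cofactor gene on the other strand, and held 1794 counts per kb of exon against 233 for VGLL4. VGLL4 was not called in T98G, where it averaged 137 ± 4.36 CPM in T98G PEPD-OE and 137 ± 8.44 CPM in T98G NC (log2 fold change -0.01, edgeR adjusted p = 0.975), and it rose in U251, with 280 ± 35.6 CPM in PEPD-OE and 189 ± 18.6 CPM in NC (SD, n = 3 each, log2 fold change 0.56, edgeR adjusted p = 0.00069). From which strand the reads under ATG7 came was not tested.

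The remaining autophagy factors were not called. TAX1BP1, a cargo receptor, had 69.5, 63.9 and 62.7 CPM in T98G PEPD-OE libraries and 31.7, 42.9 and 59 CPM in T98G NC libraries, apart but widely spread in NC (log2 fold change 0.5, SE 0.22, edgeR adjusted p = 0.0668). Its U251 values overlapped, at 63.3, 65.7 and 52.3 CPM in PEPD-OE libraries and 85.5, 68.3 and 58.9 CPM in NC libraries (log2 fold change -0.24, edgeR adjusted p = 0.512). OPTN, the cargo receptor optineurin, had 29.6, 20.3 and 24.2 CPM in T98G PEPD-OE libraries and 35.9, 40.3 and 37.6 CPM in T98G NC libraries (log2 fold change -0.62, SE 0.28, edgeR adjusted p = 0.072), and OPTN was called lower with upper-quartile scaling. MAP1LC3B, which encodes LC3B, averaged 25.2 ± 0.366 CPM in T98G PEPD-OE and 22.3 ± 5.55 CPM in T98G NC, and 23.1 ± 6.07 CPM in U251 PEPD-OE and 20.4 ± 3.22 CPM in U251 NC (SD, n = 3 each). ULK1, the kinase that starts autophagy, had a T98G log2 fold change of 0.35 and a U251 log2 fold change of -0.13, and its partner ATG13 -0.12 in T98G and 0.77 in U251 (edgeR adjusted p = 0.166). BECN1 was at -0.01 in T98G and -0.33 in U251, and ATG12 at -0.47 and -0.5, none called. GABARAPL2 had 19 counts in T98G PEPD-OE, 30 in T98G NC, 20 in U251 PEPD-OE and 19 in U251 NC, and ATG5 had 13, 18, 35 and 24 counts in the same groups. Of the trafficking genes, RAB7A, the GTPase of late endosomes, had log2 fold changes of 0.21 in T98G and -0.01 in U251, and VPS35, the core of the retromer that returns receptors from endosomes, -0.41 and 0.27, none called by edgeR or DESeq2 or at an unadjusted p under 0.05.

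Partners on the other strand with at least 100 counts were found for 9 members, 11 partners in all, and 8 of these had more counts per kb of exon than the member. BECN1 had 36.2 counts per kb and its partner CNTD1 2651, HEXA 14.0 and its antisense partner AC009690.2 1368, CTSA 98.4 and its antisense partner AL008726.1 1919, and ATG13 21.3 and its partner HARBI1 328. In T98G, AC009690.2 had 0.31 as its log2 fold change (edgeR adjusted p = 0.0173), AL008726.1 0.34 (adjusted p = 0.0774), HARBI1 0.2 (adjusted p = 0.414) and CNTD1 -0.01 (adjusted p = 0.958). In U251, CNTD1 stood at -0.27 on the log2 scale (edgeR adjusted p = 0.0394) beside -0.33 for BECN1 (adjusted p = 0.527). PSME3, a proteasome activator gene that also overlaps BECN1, fell by 0.92 on the log2 scale in T98G (edgeR adjusted p = 0.000786). With all genes that overlap the other strand left out of the fit, 18 members were tested, and CTSB, GAA and PSAP were higher and CTSL lower in T98G, and GLA higher in U251.

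**Figure D3:**
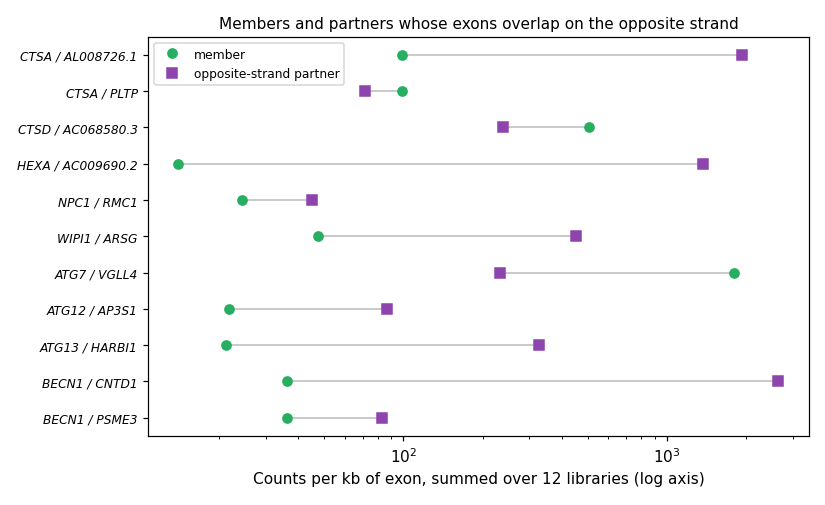
Counts per kb of exon summed over the 12 libraries (x axis, log scale) for members (circles) and the genes that overlap their exons on the other strand (squares), for the 11 partners with at least 100 counts. The partner lies to the right of the member in 8 of 11 pairs, among them WIPI1 with ARSG (47.6 against 452 counts per kb) and BECN1 with CNTD1, and to the left for ATG7 with VGLL4.

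The effect of PEPD-OE was compared between the lines by testing the T98G change minus the U251 change. It differed for 6 of 35 tested members, all with the higher change in T98G: CTSB, PSAP, CTSD, GABARAPL1, ATG7 and TAX1BP1. Of all tested genes, 14.1% had a higher change in T98G and 13.6% a lower one, 27.7% together. No member had a lower change in T98G by edgeR, 0 at an unadjusted p under 0.05 and 0 by DESeq2. The difference of log2 fold changes was 1.17 for CTSB (SE 0.23, edgeR adjusted p = 8.67e-06), 0.98 for PSAP (SE 0.18, adjusted p = 3.35e-06), 1.39 for GABARAPL1 (SE 0.38, adjusted p = 0.00265), 0.87 for ATG7 (SE 0.12, adjusted p = 1.4e-10) and 0.72 for CTSD (SE 0.19, adjusted p = 0.0018). For TAX1BP1 it was 0.74 (SE 0.29, edgeR adjusted p = 0.042), in a range of 0.58 to 1.0 over 20 alternatives, 12 of which put adjusted p at or above 0.05, up to 0.172. Its call was lost without any T98G PEPD-OE replicate, T98G NC replicate 1 or 2, U251 PEPD-OE replicate 3, or U251 NC replicate 1 or 2. WIPI1 and CTSL, called in T98G, did not differ between the lines beyond their error, at 0.32 (SE 0.67, edgeR adjusted p = 0.777) and -0.26 (SE 0.22, adjusted p = 0.432), nor did GLA at -0.3 (SE 0.26, adjusted p = 0.422). Among partners on the other strand, ARSG, opposite WIPI1, differed by 1.26 (SE 0.16, edgeR adjusted p = 5.16e-11). AC068580.3, opposite CTSD, also differed by 1.26 (SE 0.31, adjusted p = 0.000736). VGLL4, opposite ATG7, differed by -0.57 (SE 0.19, adjusted p = 0.0179), the other way from ATG7. The partners of GABARAPL1 and TAX1BP1 had too few counts for a test. Which of the overlapping genes these reads came from was not tested. The median difference over the 35 members was 0.22, beside -0.02 over all tested genes.

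The NC libraries of the lines were also compared with each other. T98G NC was higher than U251 NC for GAA, NPC1 and WIPI1 and lower for PSAP, ATG7, CTSZ, LAMP2, CD63, SCARB2, ATP6AP1 and TAX1BP1, 11 of 35 tested members, where 24.4% of all tested genes were higher and 24.3% lower, 48.7% together. PSAP (log2 fold change -1.74, SE 0.13, edgeR adjusted p = 1.27e-25) and ATG7 (-1.53, SE 0.08, adjusted p = 4.82e-39) stood furthest below U251 together with ATP6AP1. ATP6AP1, an accessory subunit of the pump, had 23.2, 20.8 and 20.1 CPM in T98G NC libraries and 54.2, 73.4 and 60.2 CPM in U251 NC libraries, with no overlap (log2 fold change -1.56, SE 0.25, edgeR adjusted p = 4.01e-08). Among membrane proteins, LAMP2 had 19, 48.1 and 32.6 CPM in T98G NC libraries and 85.5, 90.2 and 97.3 CPM in U251 NC libraries (log2 fold change -1.37, SE 0.21, edgeR adjusted p = 7.62e-09). LAMP1, its relative, did not differ beyond its error, with 64.2 ± 8.86 CPM in T98G NC and 68.8 ± 8.46 CPM in U251 NC (SD, n = 3 each, log2 fold change -0.08, SE 0.19, edgeR adjusted p = 0.754). CD63 had 61.2, 65 and 45.2 CPM in T98G NC and 95.1, 111 and 78.1 CPM in U251 NC (log2 fold change -0.74, SE 0.19, edgeR adjusted p = 0.000455). All T98G NC libraries lay below all U251 NC libraries for LAMP2, CD63, PSAP, ATG7, CTSZ, SCARB2 and ATP6AP1.

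SCARB2 had 38, 71.5 and 62.7 CPM in T98G NC libraries and 78.2, 74.7 and 106 CPM in U251 NC libraries (log2 fold change -0.53, SE 0.19, edgeR adjusted p = 0.0158), and adjusted p was 0.14 without T98G NC replicate 1, 0.178 without U251 NC replicate 3 and 0.0544 with DESeq2, in a range of 0.00428 to 0.178. TAX1BP1, at 31.7, 42.9 and 59 CPM in T98G NC and 85.5, 68.3 and 58.9 CPM in U251 NC, overlapped at the edge (log2 fold change -0.62, SE 0.21, edgeR adjusted p = 0.00873), and its adjusted p was 0.0703 without T98G NC replicate 1, 0.0505 without T98G NC replicate 2 and 0.101 without U251 NC replicate 1, in a range of 0.00243 to 0.101. CTSZ had 2201, 2262 and 2306 CPM in T98G NC against 3106, 3351 and 3576 CPM in U251 NC (log2 fold change -0.57, SE 0.08, edgeR adjusted p = 5.52e-11). In the other direction, NPC1 had 29.5, 40.3 and 45.2 CPM in T98G NC and 18.1, 5.15 and 21.8 CPM in U251 NC, fully apart (log2 fold change 1.38, SE 0.3, edgeR adjusted p = 5.29e-05). WIPI1 was higher in T98G NC by 2.16 on the log2 scale (SE 0.45, edgeR adjusted p = 1.79e-05) on the values given above. Its U251 NC libraries held 4, 4 and 3 counts, near the level of 3 counts, so the size of this difference rests on few counts. GAA had 12.7, 16.9 and 17.6 CPM in T98G NC and 10.8, 2.58 and 2.56 CPM in U251 NC (log2 fold change 1.54, SE 0.48, edgeR adjusted p = 0.00458), and the log2 fold change was 2.56 without U251 NC replicate 1, the high library. The U251 NC libraries held 9, 2 and 2 counts of GAA, so the size of this difference also rests on few counts. Of these members, NPC1 overlaps RMC1, which was also higher in T98G NC, at 24.4 ± 6.72 CPM in T98G NC and 5.49 ± 1.62 CPM in U251 NC (SD, n = 3 each, edgeR adjusted p = 5.09e-06). ATG7 overlaps VGLL4, which was also lower in T98G NC (log2 fold change -0.46, SE 0.14, edgeR adjusted p = 0.00355). WIPI1 overlaps ARSG, which was also higher in T98G NC (log2 fold change 0.3, SE 0.12, edgeR adjusted p = 0.0274). Which of the overlapping genes these reads came from was not tested. CD63 overlaps AC009779.2, with 28 counts in all, and TAX1BP1 overlaps JAZF1, with 75, and AC005091.1, with 5. LAMP2, SCARB2, ATP6AP1, GAA and CTSZ have no such overlap. The same NC libraries serve in the PEPD-OE comparisons.

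**Figure D4:**
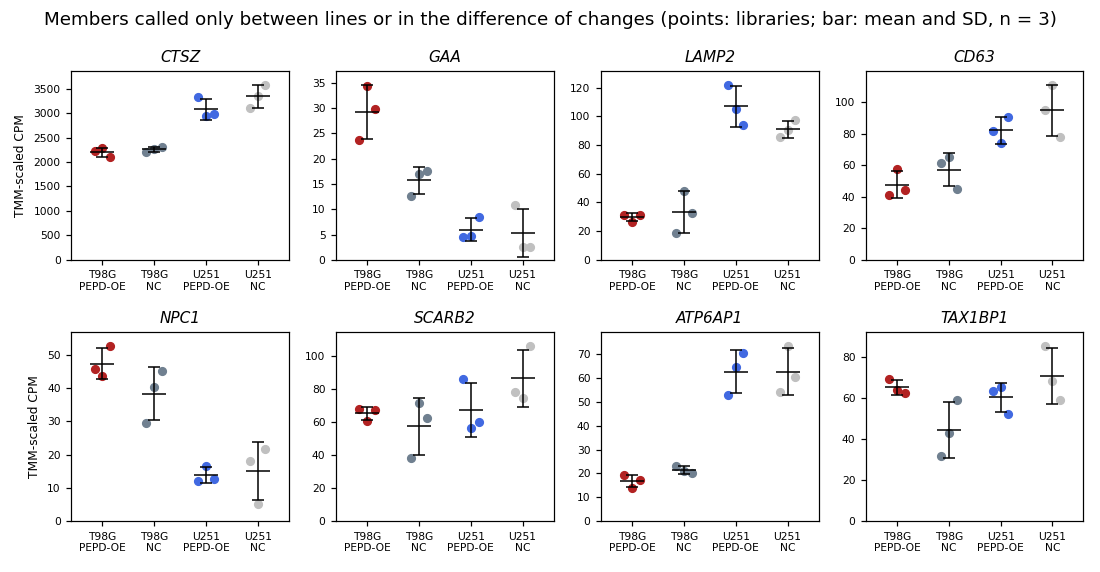
TMM-scaled CPM (y axis, from 0) of the 8 members called in the comparison of T98G NC with U251 NC or in the difference of changes but in neither PEPD-OE comparison, by group (x axis), with a point per library and bars for mean and SD (n = 3). LAMP2, CD63, CTSZ and ATP6AP1 are lower in both T98G groups than in both U251 groups, while NPC1 is higher in them.

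Other genes of the system, in 6 lists that leave out the members, gave a wider view. Of 181 listed genes 180 were found and 117 tested, and 21 rose and 11 fell in T98G PEPD-OE, where 17.7% of all tested genes rose and 14.7% fell. Of the same genes, 1 rose (SIAE, a sialic acid esterase) and 4 fell (VMP1, CHMP2A, TCIRG1 and SESN3) in U251 PEPD-OE, where 4.13% of all tested genes rose and 4.42% fell. The median log2 fold change of the 117 genes was 0.22 in T98G and -0.11 in U251. These counts are no higher a share than the background, apart from the rises in T98G, which are close to it. In T98G, 5 of 27 other hydrolases rose and 3 fell, 2 of 14 membrane proteins rose and 1 fell, 2 of 9 pump genes rose and 2 fell, 7 of 27 autophagy genes rose and 2 fell, 2 of 15 regulators of mTORC1 and the TFE factors fell, and 5 of 25 sorting genes rose and 1 fell. CALCOCO1, an autophagy receptor, averaged 62.7 ± 6.13 CPM in T98G PEPD-OE and 13.8 ± 1.86 CPM in T98G NC (SD, n = 3 each, log2 fold change 2.18, SE 0.29, edgeR adjusted p = 8.21e-11). ATG14, a subunit of the BECN1 complex, had 33.1 ± 1.7 CPM in T98G PEPD-OE and 12.8 ± 4.62 CPM in T98G NC (log2 fold change 1.42, SE 0.35, edgeR adjusted p = 0.000442). DMXL2, which helps assemble the proton pump (opposite AC066613.1 and AC066613.2), had 77.4 ± 6.57 CPM in T98G PEPD-OE and 18.5 ± 8.12 CPM in T98G NC (log2 fold change 2.04, SE 0.27, edgeR adjusted p = 5.59e-11).

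Of the 117 other genes tested, 13 had a higher change in T98G than in U251 and 3 a lower one. Over all tested genes, 14.1% had a higher and 13.6% a lower change, 27.7% together, a larger share than among the 117. Some of the 117 moved in opposite directions in the lines. VMP1, CHMP2A and TCIRG1 rose in T98G and fell in U251, as ATG7 did, while SIAE (opposite TBRG1, SPA17 and RNA5SP352) did the reverse. The log2 fold change of SIAE was -0.95 in T98G (edgeR adjusted p = 1.12e-14) and 0.32 in U251 (adjusted p = 0.0291). Its difference of log2 fold changes was -1.27 (SE 0.14, edgeR adjusted p = 1.62e-13). VMP1, a membrane protein needed for autophagosome formation (opposite PTRH2), averaged 95 ± 1.38 CPM in T98G PEPD-OE and 48.1 ± 10.6 CPM in T98G NC, and 72.7 ± 11.6 CPM in U251 PEPD-OE and 137 ± 24.5 CPM in U251 NC (edgeR adjusted p = 3.97e-05 in T98G and 7.4e-06 in U251). CHMP2A, a subunit of the ESCRT machinery that cuts membranes, stood at 71.6 ± 5.42 CPM in T98G PEPD-OE and 34.7 ± 5.63 CPM in T98G NC, and at 56.2 ± 10.8 CPM in U251 PEPD-OE and 104 ± 1.61 CPM in U251 NC (edgeR adjusted p = 2.96e-05 in T98G and 0.000123 in U251). The difference of log2 fold changes was 1.84 for VMP1 (SE 0.25, edgeR adjusted p = 5.43e-10) and 1.95 for CHMP2A (SE 0.28, adjusted p = 4.37e-09). TCIRG1, a membrane subunit of the pump, had 36.8 ± 6.25 CPM in T98G PEPD-OE and 15.3 ± 2.29 CPM in T98G NC (edgeR adjusted p = 0.000849), and 16.2 ± 1.67 CPM in U251 PEPD-OE and 31.8 ± 2.82 CPM in U251 NC (adjusted p = 0.0199). The U251 call of TCIRG1 was lost without U251 PEPD-OE replicate 2 (adjusted p = 0.0814), without U251 PEPD-OE replicate 3 (0.0739), without U251 NC replicate 1 (0.103) and with no filter on low counts (0.0637), in a range of 0.0146 to 0.103. SESN3, a sestrin that restrains mTORC1 (opposite AP000787.1), had 15.1 ± 1.58 CPM in U251 PEPD-OE and 33.2 ± 5.48 CPM in U251 NC (edgeR adjusted p = 0.0131), and its adjusted p was 0.0894 without U251 NC replicate 2 and 0.0542 without U251 NC replicate 3, in a range of 0.00717 to 0.0894.

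Library composition moved with PEPD-OE in T98G and less clearly in U251. The 13 mitochondrially encoded genes took 7.5% to 9.32% of counts in T98G PEPD-OE libraries and 4.94% to 6.01% in T98G NC libraries, and TALAM1, the transcript antisense to MALAT1, took 3.48% to 4.18% in T98G PEPD-OE libraries and 1.11% to 1.23% in T98G NC libraries. In U251 the mitochondrial shares overlapped, at 3.44% to 5.19% in PEPD-OE libraries and 4.35% to 5.17% in NC libraries. TALAM1 took 1.75% to 2.3% in U251 PEPD-OE libraries and 2.31% to 2.87% in U251 NC libraries. These TALAM1 shares were barely apart, in the opposite direction to T98G. TALAM1 lies opposite MALAT1, so the doubt about the strand given above bears on its counts too. Which of these genes the reads under TALAM1 came from was not tested. With the mitochondrial genes, TALAM1, MALAT1 and BEST1 left out before scaling, the calls of the members were the same in all 4 comparisons. T98G PEPD-OE also had the higher sum of fibroblast markers given above, and the part of this in the members' changes was not tested.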

How the data were processed

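RNA sequencing of polyadenylated transcripts was deposited for T98G and U251 cells, 3 PEPD-OE and 3 NC libraries each. Per the labels' protocols, the libraries kept strand through dUTP and were read in pairs. Per the submitters' processing notes, FastQC, fastp, HISAT2, featureCounts, Subread and GRCh38 were used, with no versions or roles. Neither the annotation release nor the strand setting is given in the sources used here. The authors' deposited file holds raw counts per Ensembl gene, whole numbers with no normalization. Positions and exon overlaps came from GENCODE release 29 on GRCh38, which held 58228 of 63241 identifiers (92.1%). Promoters came from RefSeq on GRCh38.p14.

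Genes were kept by filterByExpr (minimum count 10), scaled by TMM and tested in R 4.3.3 with edgeR 4.0.16, using a robust quasi-likelihood fit with 1 mean per group over all 12 libraries and 8 residual degrees of freedom. P-values are two-sided, with Benjamini-Hochberg adjustment across 8773 tested genes, and calls were made below an adjusted p of 0.05. The script was tested on simulated data. CPM are counts divided by the TMM-scaled library size. SE is the log2 fold change divided by the square root of F. Counts per kb divide a gene's counts by its exon length. An exact test of 3 against 3 cannot go below 0.1, so no single value was tested outside the model. Tables were made in Python 3.11.15 with pandas 2.3.3. Alternatives were DESeq2 1.42.0, scaling by RLE or upper quartile, other filters, groups fitted alone, a replicate block, robust estimation off, composition genes left out, genes without opposite-strand overlap, and each library left out.

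The members and lists were chosen with earlier results of these data known. Values in every library are given for members called in a PEPD-OE comparison and for the TFE factors. For members called only between the NC groups or in the difference of changes, values are given for every NC library. PEPD-OE library values are given for a part of them. Up to 4 called genes per list of other pathway genes qualified for naming, and of these a part is named. SIAE was named after its values were seen, as were OPTN and the promoters of GAA, LAMP1 and MCOLN1. The labels do not say that replicate numbers pair samples, so no block was used. Deviations of same-numbered libraries from their group means were also correlated, which gave -0.0417 to 0.0582. This check cannot exclude a pairing, since counting noise at these counts may hide it.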

Additional observations from a re-analysis of the deposited data

Results flagged for a closer look

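For 6 members the change under PEPD-OE differed between T98G and U251 by a test of the difference itself (interaction term of the edgeR fit). CTSB had a T98G change 1.17 higher than its U251 change on the log2 scale, GABARAPL1 1.39, PSAP 0.98, ATG7 0.87, TAX1BP1 0.74 and CTSD 0.72. CTSB, PSAP and GABARAPL1 rose in T98G and were not called in U251, ATG7 was called in both lines in opposite directions, CTSD was called in U251 alone, and TAX1BP1 was called in neither line. For CTSB, PSAP, GABARAPL1, ATG7 and CTSD the difference was called in every alternative run, and for TAX1BP1 in 8 of 20.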

How the results depend on the processing

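No member's called fold change reversed in any alternative. The T98G calls of CTSB, PSAP, GABARAPL1, WIPI1 and ATG7 held in every alternative in which the gene was fitted. With genes overlapping the other strand left out, 18 members were tested, and the counts were 3 higher in T98G and 0 lower in U251, 2 with a higher change in T98G, and 1 higher and 5 lower in T98G NC than in U251 NC, since ATG7, WIPI1, GABARAPL1, CTSD and others are then not fitted. Upper-quartile scaling gave 2 members lower in T98G (CTSL and OPTN), and where a library left out gave 2, they were CTSL and ATP6V1H. DESeq2 gave 0 lower in T98G and 0 higher in U251. With no filter on low counts, with a filter of at least 1 CPM in 3 libraries, or with the compared groups fitted alone, 1 member was lower in U251 (CTSD). The filter of at least 1 CPM in 3 libraries gave 5 members higher in T98G NC than in U251 NC, with ATP6V1H and MITF added. The cause of these shifts was not tested.

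Leaving out each library in turn gave 5 to 6 members higher and 0 to 2 lower in T98G, 0 to 1 higher and 0 to 2 lower in U251, 5 to 6 with a higher and 0 with a lower change in T98G, and 3 to 4 higher and 6 to 9 lower in T98G NC than in U251 NC. With the replicate number as a block, 5 members were higher and 1 lower in T98G, 1 higher and 2 lower in U251, 6 differed in their change, and 3 were higher and 8 lower in T98G NC, the same members as without the block. The promoter count of 6 became 2 with the longer palindrome. Depth limits the lowest members: 8 were not tested, and 3 counts equalled up to 6.46 CPM.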
